A study of Mus musculus with 74 samples.

Results

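Imprinted genes are genes transcribed mainly from the copy inherited from 1 parent. They lie in domains in which a CpG-rich control region is methylated on 1 parental copy in the germline, and this methylation has to survive the genome-wide demethylation of the early embryo. KRAB zinc finger proteins (KRAB-ZFPs) bind DNA through arrays of zinc fingers and recruit the corepressor KAP1 through their KRAB domain, and ZFP57 and ZFP445 are the KRAB-ZFPs known to keep methylation at these control regions. Neither was among the proteins assayed here. The question addressed was therefore how often, and where, other mouse KRAB-ZFPs bound near imprinted genes.

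The members were 52 imprinted genes listed by name, of which 51 were found among the 37273 genes on assembled chromosomes of the gencode vM1 annotation of the mouse genome build mm9. Kcnq1ot1, the antisense RNA inside Kcnq1, had no entry under that name and was not analysed as a gene of its own. A peak was assigned to a gene when the midpoint of its 200 bp window lay in the gene body or within 50 kb of it, so that a peak between neighbours counted for each of them. Such a peak could also lie inside a gene that was not listed. The listed genes fell into 22 domains, 12 of which held a single listed gene.

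Binding was measured by ChIP-seq of 67 KRAB-ZFPs, each overexpressed with an epitope tag from stably integrating vectors in pools of drug-resistant clones, so that the levels of the proteins were not those of their own genes. In F9 EC cells, a mouse embryonal carcinoma line, 18 KRAB-ZFPs carried an N-terminal 3XFLAG tag and were called against input and a FLAG control ChIP. A further 30 carried a 3XHA tag and had input and the matching HA control as background. Another 10 carried a 3XHA tag and were called against a control labelled Gm14296, with no input named in their labels. In B6 ES cells, 9 KRAB-ZFPs carried a C-terminal 3XHA tag and were called against input alone. All cells carried their own KRAB-ZFP genes, and since 1 sample was made per protein, no replicate error can be given and intervals cover counting error only. The deposited table gave 53011 peaks for these proteins, between 52 and 5685 for each, and the depth of the libraries is not given in it. Peak callers' thresholds differed between proteins, so numbers of peaks cannot be compared between proteins as they stand.

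Of all peaks, 129 from 38 of the 67 KRAB-ZFPs lay near an imprinted gene, which was 0.243% of the peaks in 0.277% of the genome outside assembly gaps. The windows around the imprinted genes merged into 30 regions of 7.1 Mb with 18.2 peaks per Mb, and the rest of the genome had 20.7 peaks per Mb. The ratio of these densities was 0.877 (95% Wilson interval of the peak share 0.738 to 1.04), so the interval covered an equal density with the rest of the genome. Against the windows of all genes, in which a peak counts once for each gene it lies near, the density was lower, with 17.8 peaks per Mb for members and 26.1 for all genes. It was also lower in each length class, with 18.8 and 27 under 10 kb, 18.5 and 29.9 from 10 to 50 kb, and 17.1 and 21.3 over 50 kb. At least 1 peak was found for 46 of 51 members (90.2%), close to the 87.7% of all genes. Among members shorter than 10 kb it was 13 of 14, against 83.8% of all genes of that length. Among members of 10 to 50 kb it was 14 of 17, against 92.1%, and among longer members 19 of 20, against 95.9%. The median was 2 peaks per member and 3 per gene over all genes. A peak inside the gene body was found for 23 of 51 members (45.1%) and for 25.9% of all genes, whose median length of 5384 bp was below the 34161 bp of the members. In the class over 50 kb, where lengths were closer, the gene body held a peak in 15 of 20 members and in 79.8% of all genes. When every protein was held to p under 1e-10 and an enrichment over 20, 37 of 51 members (72.5%) had a peak, against 79.7% of all genes. None of these shares was tested, since the genes had been chosen by name with earlier results known.

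**Figure D1:**
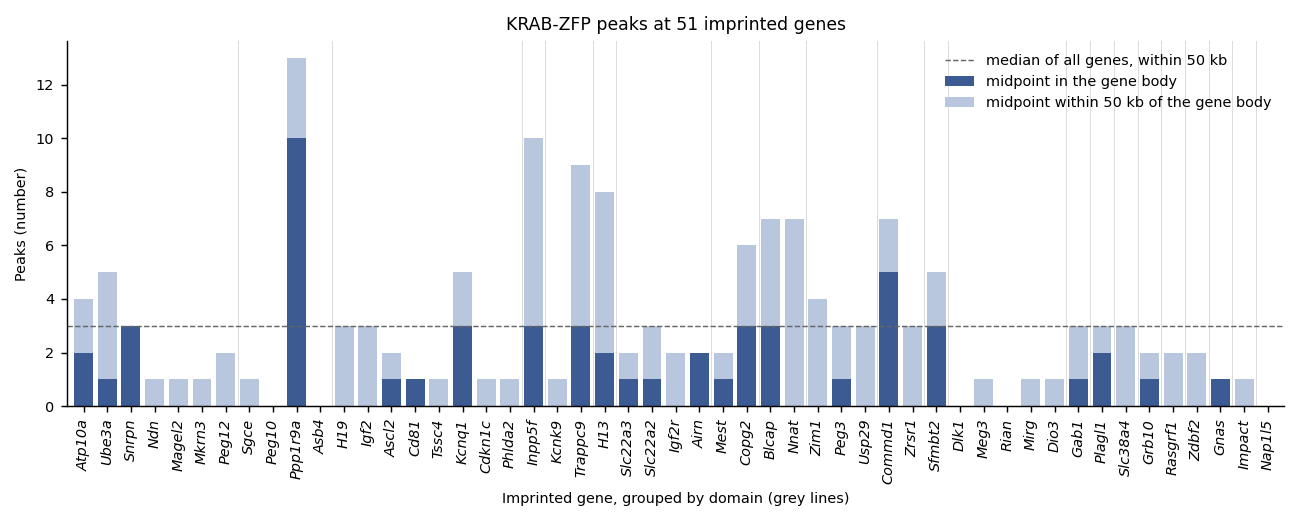
Number of peaks (vertical axis) for each of 51 imprinted genes, ordered by domain; the dark part of a bar counts midpoints in the gene body and the light part those within 50 kb, and the dashed line marks the median of 3 peaks over all genes. Ppp1r9a has 13 peaks and Inpp5f 10, while Peg10, Asb4, Dlk1, Rian and Nap1l5 have 0.

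The locus with the strongest call in which several proteins met was inside Inpp5f, a gene for an inositol phosphatase on chromosome 7 (135754842 to 135839939, plus strand), whose paternally expressed transcript is known to start within the gene. A total of 3 KRAB-ZFPs had a summit within 29 bp in an intron of Inpp5f. Zfp429 had the highest score of the domain, 3100, with 331 tags and an 82.2-fold enrichment. Gm13152 had a score of 264 with 43 tags and a 20.9-fold enrichment, and Gm13247 a score of 170 with 25 tags and a 20.4-fold enrichment. The score is 10 times the negative log10 of the caller's p-value, and 457 of all peaks shared the value 3100, so it cannot rank them. The false discovery rate deposited for the Zfp429 peak was 25%, while it was 0.03% for Gm13152 and 0% for Gm13247. The summits lay 434 to 463 bp after an annotated start within the gene, in windows with 17 CpG dinucleotides inside a CpG island, and the median copy number of the windows' 24-mers in the genome was 1. The locus involved both tags: Zfp429 was an HA sample, and Gm13152 and Gm13247 were FLAG samples. All 3 peaks passed p under 1e-10 and an enrichment over 20. These were the calling thresholds of Zfp429 and Gm13152, so for these proteins the outcome was largely set in advance. Gm13247 had been called at 1e-5 and an enrichment of 10.

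The window is shown because it holds the letters TGCCGC, the core of the sequence known to be bound by ZFP57, 3 times when both strands are read. In the following sequence of mm9, capitals mark these letters or their reverse complement GCGGCA.
Zfp429 at Inpp5f (chr7:135831424-135831623, plus strand): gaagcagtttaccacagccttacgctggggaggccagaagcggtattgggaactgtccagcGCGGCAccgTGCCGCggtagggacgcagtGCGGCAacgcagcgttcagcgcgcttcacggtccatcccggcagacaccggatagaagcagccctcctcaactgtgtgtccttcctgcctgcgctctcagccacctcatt
The windows of Gm13152 and Gm13247 started 29 and 27 bp earlier and held the same 3 matches. A share of 0.191% of all peaks held the letters 3 times or more, 101 of 53011, and 3 of the 129 peaks near imprinted genes did so, all of them these peaks. At least 1 match was found in 9 of 129 peaks (6.98%, 95% Wilson interval 3.71 to 12.7) and in 5.58% of all peaks, which the interval covers. Of these 9 peaks, 3 were the overlapping windows in Inpp5f with the same matches, which the interval counts as separate peaks. The letters contain a CpG, and CpG islands held 7 of the 9 peaks and 1421 of the 2959 with a match over all peaks. The share with 3 or more matches was not computed for peaks in CpG islands alone. The window of Zfp429 also held CAGCGCGC, the 8 letters whose share in the windows of Zfp429 most exceeded that in other windows (17.1% of its 158 windows with fewer than 10 genomic copies, and 0.643% of those of other proteins, both strands read). CpG islands held 46.1% of all Zfp429 peaks and 16.6% of all peaks, and the shares of CAGCGCGC were not matched for this. A match describes the sequence and does not show a binding site.

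**Figure D2:**
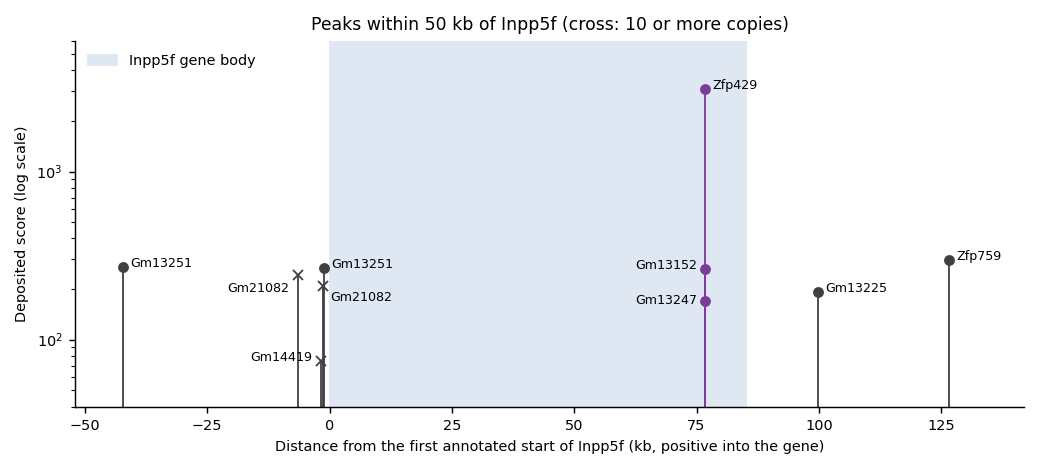
Score of each peak (vertical axis, log scale) against its distance in kb from the first annotated start of Inpp5f; the shaded span is the gene body, crosses are windows with 10 or more genomic copies, and purple marks the windows with 17 CpG dinucleotides. Zfp429, Gm13152 and Gm13247 stand at 1 place in the gene with scores of 3100, 264 and 170.

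The other 7 peaks of Inpp5f lay outside its body. Gm21082 had peaks 6421 and 1396 bp before the first start and Gm14419 had 1 at 1750 bp before it, in windows of 1078, 1282 and 793 genomic copies. Gm13251 had a peak 1157 bp and another 42162 bp before the start. Gm13225 and Zfp759 had 1 each beyond the end of the gene, in introns of the unlisted gene Mcmbp. The Inpp5f window had 54.0 peaks per Mb, and only that of H13 with 57.5 and that of Nnat and Blcap with 60.9 had more.

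A peak within 1 kb of an annotated start was found for 7 of 51 members (13.7%), against 14.7% of all genes, and for 7 of the 46 protein-coding members (15.2%), against 20.3% of all protein-coding genes. The 7 members were Inpp5f, Plagl1, Gab1, Igf2, Ube3a, Mest and Slc22a2. Gm13152 had a peak at 5 of them, and without its peaks the count fell to 3 members, Inpp5f, Mest and Slc22a2. Leaving out Gm13152 also lowered the share of peaks within 1 kb of any start over all peaks, from 11.2% to 6.94%. Near imprinted genes that share went from 10.9% to 6.25%. Slc22a2, an organic cation transporter gene of the Igf2r domain, had a Zfp709 peak 774 bp before its start with a score of 90.9 and a 13.4-fold enrichment.

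Gm13152 had 17 peaks near imprinted genes, the highest number, and 10 of these lay in CpG islands, beside 54.1% of its 5189 peaks in the genome. At Plagl1, which encodes a zinc finger transcription factor, its summit lay 35 bp after an annotated start, with a score of 541, a 28.2-fold enrichment, 23 CpG dinucleotides and 2 matches to TGCCGC. At Gab1, an adaptor protein gene, it lay 171 bp before the start with a score of 1087 and a 44.5-fold enrichment. At Ube3a, the ubiquitin ligase gene of the Snrpn domain, it lay 695 bp after the start with a score of 419 and a 26.4-fold enrichment. At Igf2, the gene of a fetal growth factor, it lay 924 bp before the nearest start, in an exon of the antisense gene Igf2as, with a score of 1239.95 and a 56.4-fold enrichment. The enrichment at these 4 genes lay above 23-fold, the median over all peaks, and at Inpp5f below it. That median pools proteins with different thresholds and is not that of Gm13152 alone. Gm13152 was called at an enrichment threshold of 20, and its 20.9-fold at Inpp5f lay close to it.

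Further Gm13152 peaks lay inside or between imprinted genes. One in an intron of Ascl2, a transcription factor gene of the placenta, had the highest enrichment of Gm13152 near a member, 63.6-fold, with a score of 963 and 22 CpG dinucleotides. Another lay 23153 bp from the start of Cdkn1c, the gene of an inhibitor of cyclin-dependent kinases, with a 30.9-fold enrichment and 23 CpG dinucleotides. In Copg2, a coatomer subunit gene next to Mest, a Gm13152 peak had a 47.3-fold enrichment, and this was the 1 window of 17 with the 8 letters AGAGGGTC that most set Gm13152 apart (19.2% of its 5001 windows with fewer than 10 copies against 0.663% of others). The windows at Igf2as and near Cdkn1c are shown as examples of different composition, the first built from repeated units without a match and the second a CpG-rich window with matches to TGCCGC in capitals.
Gm13152 at Igf2 (chr7:149853546-149853745, plus strand): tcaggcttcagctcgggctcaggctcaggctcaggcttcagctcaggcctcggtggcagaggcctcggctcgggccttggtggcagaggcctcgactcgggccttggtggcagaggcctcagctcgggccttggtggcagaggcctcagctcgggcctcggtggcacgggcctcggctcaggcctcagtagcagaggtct
Gm13152 at Cdkn1c (chr7:150623703-150623902, plus strand): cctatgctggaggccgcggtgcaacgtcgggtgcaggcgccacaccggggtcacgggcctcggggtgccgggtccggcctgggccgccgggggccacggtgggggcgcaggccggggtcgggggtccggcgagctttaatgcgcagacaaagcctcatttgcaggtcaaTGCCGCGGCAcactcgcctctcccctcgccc
In the second window the match and its reverse complement overlap in 2 bases. The window near Cdkn1c lay in a CpG island, and the window at Igf2as, with 11 CpG dinucleotides, did not.

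**Figure D3:**
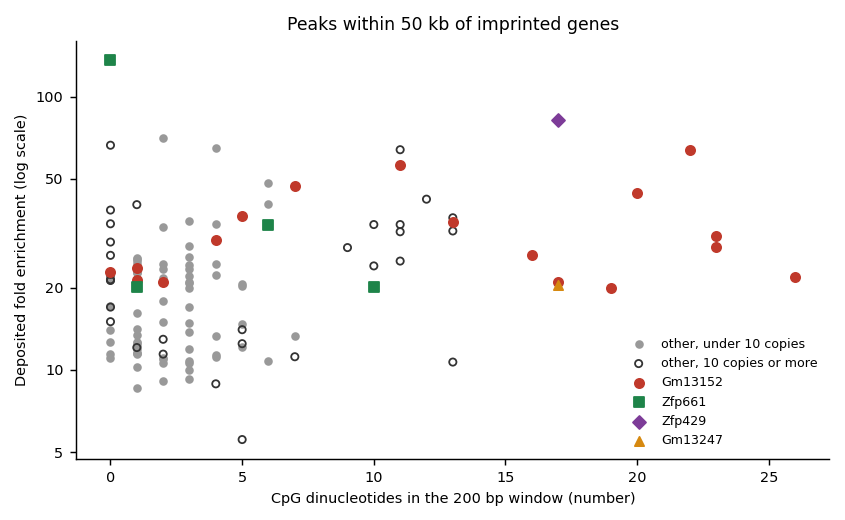
Deposited fold enrichment (vertical axis, log scale) against the number of CpG dinucleotides in the 200 bp window for the 129 peaks; symbols mark Gm13152, Zfp661, Zfp429 and Gm13247, and open circles other windows with 10 or more genomic copies. All windows with more than 13 CpG dinucleotides belong to Gm13152, Zfp429 or Gm13247, and the highest enrichment, 136-fold, is a Zfp661 peak with 0 CpG dinucleotides.

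Zfp661 had 4 peaks near members, each in the body of a different imprinted gene. In Commd1, the copper metabolism gene that hosts Zrsr1 in an intron, it had a score of 3100, 632 tags and a 136-fold enrichment, the highest of the 129 peaks. In Peg3, a zinc finger protein gene expressed from the paternal copy, its peak lay 2765 bp after an annotated start with a score of 559 and a 33.8-fold enrichment. In Mest, a hydrolase gene expressed from the paternal copy, it lay 921 bp before an internal start, in a CpG island with 10 CpG dinucleotides, with a score of 178 and a 20.1-fold enrichment. In Atp10a, a phospholipid flippase gene, it lay 10699 bp after the start with a score of 233 and a 20.1-fold enrichment. The peaks in Mest and Atp10a thus lay close to 20, the enrichment threshold at which Zfp661 was called. The 4 peaks were 0.376% of the 1065 peaks of Zfp661 (95% Wilson interval 0.146 to 0.962), which covered the 0.243% of all peaks.

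The 4 windows of Zfp661 are set side by side because they differ in kind. Capitals mark CAAAGCTG, the 8 letters that most set Zfp661 apart (10.7% of its 1022 windows with fewer than 10 copies, 1.13% of those of others, both strands read), which 2 of the 4 hold. In the Commd1 window, which lacks them, capitals mark ACAGCTGT, chosen after the sequence was seen.
Zfp661 at Commd1 (chr11:22863792-22863991, plus strand): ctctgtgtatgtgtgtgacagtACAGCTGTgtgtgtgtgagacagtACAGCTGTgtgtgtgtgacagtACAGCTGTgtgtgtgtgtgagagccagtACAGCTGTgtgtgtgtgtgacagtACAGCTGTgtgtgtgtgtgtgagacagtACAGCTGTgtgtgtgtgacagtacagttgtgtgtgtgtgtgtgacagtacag
Zfp661 at Peg3 (chr7:6680266-6680465, plus strand): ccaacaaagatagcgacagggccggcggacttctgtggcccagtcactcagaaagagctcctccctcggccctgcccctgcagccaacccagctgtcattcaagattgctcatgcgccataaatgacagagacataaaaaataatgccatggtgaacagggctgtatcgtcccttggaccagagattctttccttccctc
Zfp661 at Mest (chr6:30687030-30687229, plus strand): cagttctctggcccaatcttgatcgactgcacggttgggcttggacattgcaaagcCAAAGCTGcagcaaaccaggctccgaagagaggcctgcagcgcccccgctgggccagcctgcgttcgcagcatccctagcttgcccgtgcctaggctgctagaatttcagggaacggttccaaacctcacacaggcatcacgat
Zfp661 at Atp10a (chr7:65924172-65924371, plus strand): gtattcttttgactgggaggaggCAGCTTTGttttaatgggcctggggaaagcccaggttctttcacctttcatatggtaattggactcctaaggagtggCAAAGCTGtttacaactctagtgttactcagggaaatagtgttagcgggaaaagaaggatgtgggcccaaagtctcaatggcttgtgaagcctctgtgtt
The Commd1 window was a tandem array in which ACAGCTGT recurred 6 times between stretches of alternating T and G. These letters stood in 3.52% of the windows of Zfp661 and in 0.549% of those of other proteins. CAAAGCTG stood once in the window in Mest and at 2 places in that in Atp10a, and the window in Peg3 held neither.

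Peaks of 2 FLAG samples, Gm13251 and Gm13225, recurred together across domains. Gm13251 had 16 peaks near members in 11 domains and Gm13225 had 13 in 9 domains, none of them in a CpG island. In the whole genome only 1.27% of Gm13251 peaks and 1.46% of Gm13225 peaks lay in CpG islands. At 5 places their summits were 54 to 342 bp apart, beside H19 and Igf2, Zim1 and Peg3, H13, Atp10a and Ppp1r9a. The called peaks there were 1748 to 3467 bp wide for Gm13225 and 263 to 339 bp wide for Gm13251. A summit is 1 point in such a call, so these distances do not show how closely the proteins bound. These places involved 5 of the 16 peaks of Gm13251 and 5 of the 13 of Gm13225 near members. In the whole genome 22.2% of Gm13251 peaks and 20.5% of Gm13225 peaks had the other protein within 500 bp, at a median distance of 183 bp. The Gm13225 windows of the pairs at H19 and Zim1 are shown with runs of 8 or more A or T in capitals, since such runs stood in 76.2% of the 2922 Gm13225 windows with fewer than 10 copies and in 9.74% of those of other proteins.
Gm13225 at H19 (chr7:149798919-149799118, plus strand): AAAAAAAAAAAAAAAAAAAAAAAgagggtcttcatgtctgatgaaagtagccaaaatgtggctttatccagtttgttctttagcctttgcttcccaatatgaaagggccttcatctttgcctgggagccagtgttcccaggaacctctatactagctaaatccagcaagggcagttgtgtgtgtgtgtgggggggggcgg
Gm13225 at Zim1 (chr7:6615664-6615863, plus strand): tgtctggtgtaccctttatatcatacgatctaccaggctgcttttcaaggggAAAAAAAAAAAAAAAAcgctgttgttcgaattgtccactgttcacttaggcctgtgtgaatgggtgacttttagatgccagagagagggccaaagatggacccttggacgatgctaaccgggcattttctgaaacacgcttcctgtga
Near imprinted genes 8 of the 13 Gm13225 windows held such a run. These counts include the Blcap window of 131 copies, which holds a run and lies outside the base of the 76.2%. Gm13251 had no comparable sequence, since the 8 letters that most set it apart stood in 7.19% of its windows and in 4.91% of others. Beside H19, the maternally expressed non-coding RNA of the growth domain, Gm13225 had a 10.3-fold and Gm13251 a 24.9-fold enrichment at 34970 and 35024 bp before the start of H19.

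Windows of different proteins that overlapped by at least 25% were joined into loci. Of 119 loci near imprinted genes, 8 (6.72%) held 2 or more KRAB-ZFPs, and of all 48767 loci 6.31% did. Beside that in Inpp5f, a second locus held 3 proteins, 8658 to 8716 bp before the start of Blcap, the host gene of Nnat. There the summits of Gm13235, Zfp759 and Zkscan17 lay within 58 bp in windows with 0 CpG dinucleotides, and the enrichments were 13.99-fold, 22.2-fold and 12.7-fold. Another locus in an intron of Blcap held Gm13225 with a 12.9-fold and Gm13235 with an 11.4-fold enrichment, in windows of 131 and 196 genomic copies. In an intron of Sfmbt2, a Polycomb group gene expressed from the paternal copy, Gm6710 and Gm13251 met within 39 bp with 21.8-fold and 22.8-fold enrichments. Beyond the end of H13, the signal peptide peptidase gene, Gm13235 and Gm13251 met within 21 bp with 11.3-fold and 20.9-fold enrichments. In an intron of Ppp1r9a, the neurabin gene, Zfp600 and 2610305D13Rik met within 13 bp with 16.97-fold and 29.4-fold enrichments, in windows of 13 and 12 copies and with false discovery rates of 14.29% and 0.9%. The other two loci were the pairs of Gm13225 and Gm13251 beside Zim1 and H19. Under p below 1e-10 and an enrichment over 20, only the loci in Inpp5f and Sfmbt2 still held 2 or more proteins. Gm6710 and Gm13251 at Sfmbt2, and Zfp429 and Gm13152 at Inpp5f, had been called at these thresholds. Each lost locus held a protein called at 1e-5 or at an enrichment of 10, so this count largely repeats the calling thresholds. Without Gm13225 and Gm13251 there were 3 loci in place of 8.

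A share of 24% of the peaks near imprinted genes (31 of 129, 95% Wilson interval 17.5 to 32.1) lay in sequence with 10 or more genomic copies, and 34.5% of all peaks did. Reads from such sequence were placed at 1 of several equal positions, so the position of these peaks among copies is uncertain. They came largely from a few proteins. All 7 peaks of Gm21082, 4 of the 5 of Gm14419, 5 of the 7 of Gm14406 and all 3 of Gm8898 were of this kind, as were 91.9%, 71.4%, 91.6% and 88.9% of their peaks in the genome. Gm14419, assayed in ES cells, and Gm21082, assayed in F9 cells, had summits 277 bp apart beside Trappc9, 325 bp apart before Ube3a and 354 bp apart before Inpp5f. Over the genome 20.5% of Gm14419 peaks and 36.3% of Gm21082 peaks had the other protein within 500 bp, at a median distance of 303 bp. At Ube3a this pair had enrichments of 63.9-fold and 36.0-fold, about 18 kb before the gene (18334 and 18009 bp), and Gm8898 had 8.89-fold at 19837 bp. At Slc38a4, an amino acid transporter gene, the same 3 proteins gave the 3 peaks of the gene, all beyond its end, with enrichments of 42.1-fold, 24.01-fold and 5.56-fold.

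**Figure D4:**
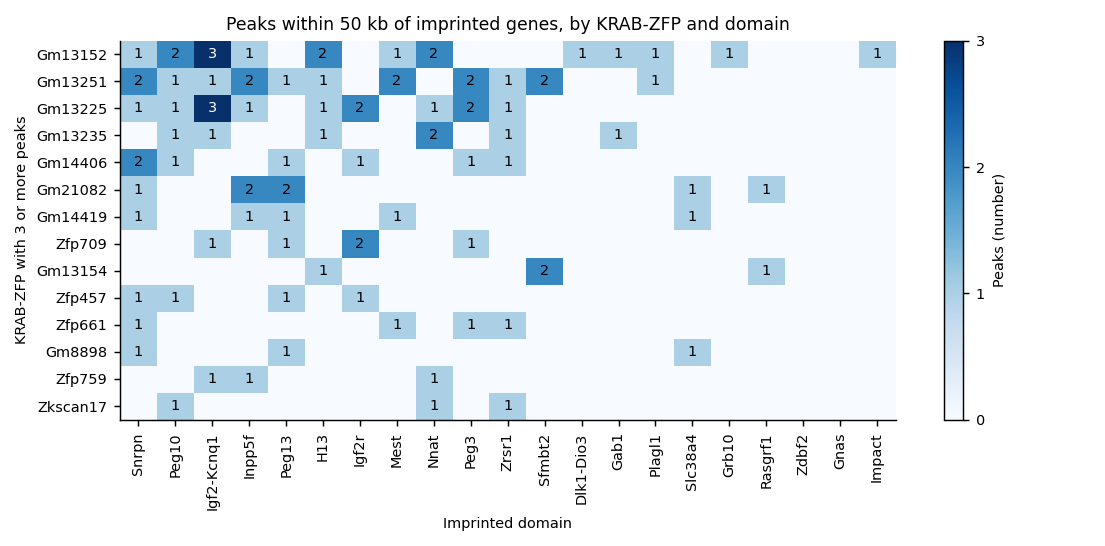
Number of peaks within 50 kb of imprinted genes for each KRAB-ZFP with 3 or more such peaks (rows) in each domain with a peak (columns), printed in the cells and shaded from 0 to 3. Gm13152, Gm13251 and Gm13225 reach 12, 11 and 9 domains, while the peaks of most other proteins are single.

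The growth domain of Igf2 and Kcnq1 on chromosome 7 had 12 peaks of 8 proteins in 8 listed genes, 14.5 per Mb. Igf2 and H19 had 3 peaks each and shared the pair between them. The remaining peak near H19, of Gm14391, had a 14.7-fold enrichment but a false discovery rate of 100%. Kcnq1, the potassium channel gene, had 5 peaks, of which those of Zfp759, Zfp709 and Gm13225 lay in its introns with 24.4-fold, 12.5-fold and 17.1-fold enrichments. Ascl2 had 2 peaks, of which that of Gm13225 lay in an intron of the unlisted gene Th. Cd81, a tetraspanin gene, and Tssc4 shared the 1 peak of Zfp456, in an intron of Cd81 with a 16.2-fold enrichment and a false discovery rate of 13.64%, which also counted for Kcnq1. Cdkn1c had the Gm13152 peak described above. Phlda2, which limits growth of the placenta, had 1 Gm13235 peak 24562 bp before its start, in an intron of the unlisted gene Nap1l4.

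The Snrpn domain on chromosome 7 had 15 peaks of 13 proteins, the most of any domain, in 0.923 Mb. Its strongest peak was that of Zfp808, 46678 bp before the start of Peg12, with 372 tags, a score of 2653.85 and a 66.4-fold enrichment, in a window of 14 genomic copies. A Zfp874a peak beyond the end of Peg12 had a 21.1-fold enrichment and was the single peak of Mkrn3, a ring finger gene. Ndn and Magel2, both MAGE family genes, shared a Gm14406 peak in a window of 5017 copies. Snrpn itself, a splicing protein gene, had 3 peaks, of Gm14406, Gm14399 and Zfp457, all in introns and with enrichments of 26.3-fold, 12.1-fold and 14.1-fold. The false discovery rate of the Gm14399 peak was 31.25%. Atp10a had 4 peaks and Ube3a 5, and the Gm13152 peak was the only one in the body of Ube3a.

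The Peg10 domain on chromosome 6 had 14 peaks, and 13 of them, from 12 proteins, belonged to Ppp1r9a, the member with the most peaks. Ppp1r9a was 263 kb long, and its Gm13251 and Gm13225 peaks lay beyond its end, in introns of the unlisted gene Pon1. The body of Ppp1r9a held 10 of its peaks, all in introns. The strongest there was of Zfp874a with 68 tags, a score of 448 and a 21.8-fold enrichment, while the highest enrichment was of Gm14412 with 40.2-fold in a window of 28859 copies. Sgce, a sarcoglycan gene, had 1 Gm13235 peak. Peg10, derived from a retrotransposon, and Asb4, an ankyrin repeat gene, had 0. The nearest peak to Peg10 was 78603 bp away and that to Asb4 51495 bp away, just outside the limit.

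Of the other domains with several genes, that of Trappc9 and Kcnk9 on chromosome 15 had 10 peaks. Trappc9, a trafficking complex gene of 472 kb, had 9 of them, and 3 of these lay in its body, of Gm14420 (false discovery rate 33.68%), Gm14406 and Zfp709. Kcnk9, a potassium channel gene, had 1, of Zfp457. The Igf2r domain on chromosome 17 had 7 peaks. Airn, the antisense RNA that silences its neighbours, had 2 Gm13225 peaks in its body with 11.2-fold and 14.96-fold enrichments, and these were also the 2 peaks of Igf2r, the receptor that clears Igf2. Slc22a3 had 2 peaks and Slc22a2 3, among them a Gm13051 peak with the highest enrichment of the domain, 64.8-fold, 19097 bp before the start of Slc22a2. The Zfp709 peak counted for Slc22a3 lay in an intron of the unlisted gene Plg.

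Mest had 2 peaks and Copg2 6, Commd1 had 7 and Zrsr1 3. The peak nearest to Zrsr1 was 8476 bp away and was of Gm13225, 848 bp from that of Zfp661. Peg3, Zim1 and Usp29 had 3, 4 and 3 peaks, and in this domain only the Zfp661 peak lay in a listed gene. Nnat and Blcap shared 7 peaks, of which 3 lay in Blcap and none in Nnat, the neuronatin gene. The Dlk1-Dio3 domain on chromosome 12 had 3 peaks, or 6.02 per Mb. A peak of LOC102638055 lay 11331 bp before the start of Meg3, a maternally expressed non-coding RNA, with 169 tags, a score of 1516.89 and a 70.4-fold enrichment. Mirg had a Gm14295 peak with an 11.6-fold enrichment and a false discovery rate of 19.51%, and Dio3 a Gm13152 peak with a 34.9-fold enrichment, 40928 bp from its start in a CpG island. Dlk1, a Notch family ligand gene, and Rian, which hosts snoRNAs, had 0 peaks, with the nearest 66334 and 74275 bp away.

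Among the domains with 1 listed gene, H13 had 8 peaks of 7 proteins, with a highest enrichment of 40.5-fold for Gm13154 in an intron. Sfmbt2 had 5, among them a Gm13154 peak with a 48.4-fold enrichment 15142 bp before its start, in an intron of the unlisted gene Gm13261. Plagl1, Gab1 and Slc38a4 had 3 each. Grb10, an adaptor gene that limits growth, Rasgrf1, an exchange factor gene, and Zdbf2 had 2 each. In Grb10 a Zfp882 peak lay 5406 bp after a start with a 35.1-fold enrichment, beyond its end a Gm13152 peak had a 36.6-fold enrichment, and before Rasgrf1 a Gm13154 peak had a 34.2-fold enrichment. Near Zdbf2 the peak of Zfp456 had a 20.0-fold enrichment at a false discovery rate of 22%, and that of Zfp617 a 22.7-fold enrichment. Gnas, which encodes a G protein subunit and alternative transcripts, had 1 peak, of Zfp599, in an intron 1163 bp from the start of the antisense gene Nespas, with a 20.7-fold enrichment. Impact had 1, of Gm13152, 30517 bp before its start. That peak lay in a CpG island and in an untranslated region of Osbpl1a, 42 bp from a start of this unlisted gene. Nap1l5, a nucleosome assembly gene of 1.89 kb, had 0, and its nearest peak, of Gm13152, was 73347 bp away.

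By the parental copy that is expressed, 22 of 25 paternally and 22 of 24 maternally expressed members had a peak within 50 kb, beside 87.7% of all genes. A peak in the gene body was found for 8 of the 25 and 13 of the 24, which had median lengths of 20697 and 41743.5 bp. Over all genes, with a median length of 5384 bp, 25.9% had a peak in the body, and 79.8% of those over 50 kb. The difference by parental copy was not tested. Peaks near imprinted genes had a median score of 251 and a median enrichment of 21.2-fold, and over all peaks these medians were 243 and 23-fold. The deposited false discovery rate was above 5% for 15 of the 129 peaks, and it was at most 5% for 88.4% of them and for 86.2% of all peaks. Introns held 52.7% of the peaks near imprinted genes and 34.3% of all peaks, a difference that the choice of windows around genes fixes in part. CpG islands held 15.5% (95% Wilson interval 10.3 to 22.7) beside 16.6% of all peaks.

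The share of a protein's own peaks that lay near imprinted genes is on a scale of its own total, and was compared between the assay conditions. Among proteins with at least 5 such peaks it was highest for Gm13251, 0.485% (95% Wilson interval 0.299 to 0.786), followed by Zfp709 with 0.409% (0.175 to 0.953), Gm13235 with 0.391% (0.189 to 0.805), Gm13225 with 0.364% (0.213 to 0.622) and Gm13152 with 0.328% (0.205 to 0.524). These intervals overlapped. Gm21082 had 0.317%, while Gm14419 with 0.128% and Gm14406 with 0.123% had less, and Gm13154, Zfp457 and Zfp661, with 4 peaks each, had 0.256%, 0.221% and 0.376%. Of 67 proteins, the interval lay above the 0.243% of all peaks in 3, Gm13251, Zfp456 (2.78%, 2 of 72 peaks) and Zfp874a (1.35%, 2 of 148 peaks), with no correction for the number of proteins. Both peaks of Zfp456 had false discovery rates above 5%, 22.02% and 13.64%. Most proteins had too few peaks for their interval to lie below the 0.243% of all peaks. No peak near a listed gene was called for 29 proteins, which does not show that they do not bind there.

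**Figure D5:**
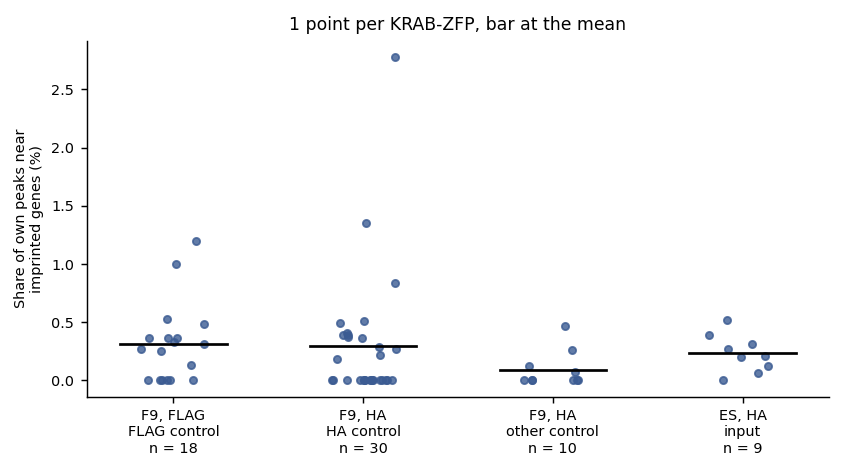
Share of each KRAB-ZFP's own peaks that lie near imprinted genes (vertical axis, percent), 1 point per protein with bars at the means, by cell line, tag and control. The groups overlap, and each has proteins at 0%.

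In F9 cells the mean share was 0.311% ± 0.341 (SD, n = 18) with FLAG and 0.295% ± 0.56 (SD, n = 30) with HA against the HA control, a difference of 0.0158 percentage points (two-sided permutation test, p = 0.869, adjusted p = 0.996 by Benjamini-Hochberg over 2 comparisons). Over all F9 samples it was 0.265% ± 0.452 (SD, n = 58) and in ES cells 0.232% ± 0.162 (SD, n = 9), a difference of 0.0328 percentage points (two-sided permutation test, p = 0.996, adjusted p = 0.996). Both differences were smaller than the spread between proteins. The medians were 0.292% with FLAG and 0% with HA, and 0.0974% in F9 and 0.208% in ES cells, so for the cell lines the medians and the means differed in direction. Single proteins set much of these means. Leaving out Zfp456, an HA sample with 2 of 72 peaks near members, made FLAG minus HA 0.101 percentage points (permutation p = 0.305, adjusted p = 0.61) and F9 minus ES -0.0113 (permutation p = 0.841, adjusted p = 0.841). FLAG minus HA also fell below 0 without 2610305D13Rik (-0.0368) or without Zfp882 (-0.0247). Between FLAG and HA in F9 cells the antibody, the control ChIP, the thresholds and the proteins changed together, and between F9 and ES cells the cell line as well, so that these cannot be told apart.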

How the data were processed

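The authors mapped ChIP-seq reads to mm9 with Bowtie or Bowtie2, placed a read with several equal positions at 1 of them, and called peaks per sample with MACS 1.4.2, without pooling. They deposited 53255 peaks of 200 bp around the summit. The deposited tags per peak are raw counts, the deposited score is 10 times the negative log10 of the p-value, the deposited fold enrichment is a ratio over local background, and the deposited false discovery rate is a percent. The 200 bp windows are centred on the deposited summits, so distances between midpoints are given as distances between summits. Called widths in bp are given only for the pairs of Gm13225 and Gm13251. The labels give p thresholds of 1e-10 or 1e-5 and enrichment thresholds of 20, 10 or none. A table name with 244 peaks had no counterpart among the labels, and 1 KRAB-ZFP of the labels had none in the table. Both were left out, which left 53011 peaks of 67 KRAB-ZFPs.

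Midpoints were assigned to gencode vM1 genes of the NCBIM37 assembly (mm9), with coordinates counted from 1, in Python 3.11.15 with numpy 2.4.6, pandas 2.3.3 and scipy 1.17.1. Copy number was the median number of genomic copies of the 24-mers of a window. CpG islands were computed (200 bp or longer, GC of 50% or more, observed over expected CpG of 0.6 or more). Assembly gaps were left out of densities. Members, domains and lists were chosen with earlier results of these data known. Named were the 10 members and 10 KRAB-ZFPs with the most peaks, members with 0 peaks or a peak within 1 kb of a start, the 5 largest shares among KRAB-ZFPs with at least 5 peaks, the highest score per domain and shared loci; other members are named to account for each. The 8-letter words and the distance of 500 bp were chosen after the data were seen. For the assay groups, mean shares over KRAB-ZFPs were tested by permutation (two-sided, 100000 resamples), adjusted over 2 comparisons. Counts at members were set beside the same counts over all genes, by length class. The counting was tested on simulated peaks, in which 200 of 200 planted peaks were recovered. Library depth is not given in the files used here, and intervals are 95% Wilson intervals of counting error.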

Additional observations from a re-analysis of the deposited data

How the results depend on the processing

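With p under 1e-10 and enrichment over 20 for every KRAB-ZFP, peaks near imprinted genes numbered 78 in place of 129, KRAB-ZFPs with such a peak 21 in place of 38 and loci of 2 or more KRAB-ZFPs 2 in place of 8. Many proteins had already been called at these thresholds, so these counts depend in part on how each protein was called. With a flank of 10 kb there were 75 peaks at 30 members, and the multi-copy share was 17.3% in place of 24%. With the gene body alone there were 54 peaks of 24 KRAB-ZFPs at 23 members and 4 shared loci. Members with a peak near a start numbered 12 within 5 kb in place of 7 within 1 kb, and 3 without Gm13152. Matching shares over all genes are not given for the 10 kb flank, the 5 kb distance or the set without Gm13152. Without Gm13225 and Gm13251, an alternative chosen after seeing the data, 3 shared loci were left. The FLAG minus HA difference changed sign with a 10 kb flank (-0.0136 percentage points), with KRAB-ZFPs of at least 200 peaks (-0.0399) and without 6 KRAB-ZFPs with neither a target repeat nor a motif in the study's supplementary list, inferred here to be those it set aside (-0.0295, also chosen after seeing the data). The F9 minus ES difference changed sign with at least 200 peaks (-0.00789) and without Zfp456 (-0.0113), the latter chosen after seeing the data. Leaving out each KRAB-ZFP in turn, also added then, moved FLAG minus HA between -0.0368 and 0.101, by over 1.5 times for 30 of 48, and F9 minus ES between -0.0113 and 0.069, by over 1.5 times for 9 of 67. The cause of these changes was not tested. The unadjusted p-values of the 2 permutation tests ranged from 0.0298 to 0.992 over the alternatives, and none passed 0.05 after adjustment. Under the strict thresholds FLAG minus HA was 0.8 percentage points (n = 17 and 29, permutation p = 0.0298, adjusted p = 0.0596) and F9 minus ES 0.351 (adjusted p = 0.0781 by permutation), and without Gm13225 and Gm13251 FLAG minus HA was 0.00164, so these differences kept their direction and not their size. The density ratio lay between 0.774 and 0.885 in all alternatives run. Intervals of these ratios were not computed, so it is not shown whether they cover an equal density as the main one did. Of 59 alternative values, 13 counts or shares moved beyond their limits and 5 differences changed sign; the other 41 were counts or shares within those limits or differences with the same direction and the same side of 0.05. The alternative of placing peaks by the deposited summit was not run, since the 200 bp windows are already centred on it. No paired analysis was possible because each KRAB-ZFP had 1 sample and the groups share no replicate. Each protein was assayed once at unknown depth, so a missing peak does not show absent binding.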
